A study of Mus musculus with 2 samples.

Results

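Hoxa9 and 4 genes of the HoxB cluster, Hoxb2, Hoxb4, Hoxb5 and Hoxb9, were described in endothelial cells (EC) of the mouse aorta-gonad-mesonephros region (AGM), 5 of the 12684 genes measured. They were taken by gene symbol, keeping the entry with the higher mean where a symbol was repeated, and they had been chosen by their ratios between the same 2 libraries described here. Their levels and ratios are therefore a description, with no test. The GFP-depleted EC library came from CD31+CD117-CD45-Runx1+23GFP- cells of E10.5 embryos carrying the Runx1+23GFP transgene, in which an enhancer of Runx1 drives GFP in hemogenic endothelium (HE), the endothelium that gives rise to blood. The bulk EC library came from sorted EC of wild-type littermates, which carry no GFP. Its cells were not divided by GFP, so any HE among them remained in it. The methods of the study give the CD31+CD117-CD45- gate for the GFP-depleted cells and name the others only as bulk EC. Both samples are labelled with the strain Runx1+23GFP, the genotype is given as GFP+ for GFP-depleted EC and WT for bulk EC, and how many embryos were pooled is not stated in the sources used here. In its Results the study calls the sorted cells HE positive for GFP, but GFP-negative cells are given in its methods and in the sample labels, which were followed here. With 1 library per group no difference has a replicate check, and transgene, sort and library cannot be told apart.

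Hox genes encode homeodomain transcription factors and lie in 4 clusters in the mouse. Within a cluster the genes at the 3′ end are switched on earlier and reach further toward the head, and those at the 5′ end are switched on later and mark more caudal segments. Genes at matching positions in different clusters are paralogs and carry the same number. In blood formation Hoxa9 is known as a partner of Meis1 in stem cells and leukemia, Hoxb4 for expanding hematopoietic stem cells when overexpressed, and Hoxb5 for marking long-term stem cells in mouse bone marrow.

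The homeobox is the stretch of coding sequence for the DNA-binding homeodomain. It is shown for Hoxb9 and Hoxb2, the genes at the 5′ and 3′ ends of the HoxB entries, whose levels differed in opposite directions. Each sequence is 180 bases of mm9 in the reading direction of the gene and lies in a single exon of the GENCODE M1 annotation, Hoxb9 at chr11:96135973-96136152 and Hoxb2 at chr11:96214299-96214478, both on the plus strand. Capitals mark the bases that differ between the 2 genes.
Hoxb9: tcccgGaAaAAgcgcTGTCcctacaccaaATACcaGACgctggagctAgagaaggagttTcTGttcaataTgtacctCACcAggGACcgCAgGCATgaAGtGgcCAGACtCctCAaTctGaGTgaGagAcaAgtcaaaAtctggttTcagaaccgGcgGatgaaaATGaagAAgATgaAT
Hoxb2: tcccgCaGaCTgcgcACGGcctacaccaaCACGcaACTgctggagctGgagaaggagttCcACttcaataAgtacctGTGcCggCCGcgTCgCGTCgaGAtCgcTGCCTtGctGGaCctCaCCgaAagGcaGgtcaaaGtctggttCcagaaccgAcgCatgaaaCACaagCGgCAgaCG

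The homeoboxes of Hoxb9 and Hoxb2 had 64.4% of bases identical. They differed at 64 bases, 30 of them at the third codon position, and 39 of the 60 codons gave the same amino acid. The longest run of identical bases was 11, against reads taken as 100 bases long. Hoxb9 and Hoxb2 do not carry the same number, so this pair does not show whether reads of paralogs could be confused. The homeoboxes of paralogs with the same number were not compared here. Over whole transcripts, 0% of the 50-base words of Hoxa9, Hoxb2 and Hoxb5 occurred in a protein-coding transcript of another gene, and the share was 0.22% for Hoxb4 and 0.19% for Hoxb9.

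The values are RPKM, reads scaled to the length of the gene and the depth of the library, 1 value per gene and library. The step size of the values of short genes gave the number of bases covered. With reads taken as 100 bases long, the depth was about 14600000 reads for GFP-depleted EC and 109800000 reads for bulk EC, a 7.50-fold difference. The number of reads behind each value, and an exact 95% counting interval, followed from that depth and the exon length. Reads from amplified cDNA are not independent molecules, so these intervals cover counting error only. Runx1 itself was at 0.62 RPKM in GFP-depleted EC and 0.66 RPKM in bulk EC. Of 19 pan-endothelial genes 6 were lower in GFP-depleted EC by more than 1.5 fold (23.6% of all genes were) and 0 were higher, with a median log2 ratio of -0.24, and their levels added up to 2409 RPKM in GFP-depleted EC and 2882 RPKM in bulk EC. Those lower in GFP-depleted EC, like 4 of the 5 Hox genes, included Eng, a TGF-β co-receptor of endothelium, with 10.2 RPKM in GFP-depleted EC and 63.0 RPKM in bulk EC, and Sox18, an endothelial transcription factor, with 15.5 RPKM in GFP-depleted EC and 41.8 RPKM in bulk EC. The part of this difference in the levels of the Hox genes was not tested. Each log2 ratio sets GFP-depleted EC over bulk EC with 0.3 RPKM added to both, which makes differences of low genes look smaller, and its median over all genes was -0.02. The log2 ratio also moved with the base composition of genes. Over 10821 genes its Spearman correlation with the GC content of the exons was -0.385, a value across genes, which do not replicate each other. Its median was -0.71 in the tenth of genes richest in GC (59.3% GC) and 0.22 in the tenth poorest in GC (40.1% GC).

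Hoxb2, Hoxb4, Hoxb5 and Hoxa9 had lower levels in GFP-depleted EC than in bulk EC, by 3.03 to 4.42 fold, and Hoxb9 had a higher level in GFP-depleted EC, by 3.39 fold. By the threshold of the study (at least 0.3 RPKM in at least 1 library and a ratio above 1.5), 4 of the 5 were lower in GFP-depleted EC, where 23.6% of all genes were, and 1 was higher, where 15.3% were, so that 38.9% of all genes passed it in either direction. These directions follow from how the genes were picked. The split over all genes depends on the scaling. With both libraries set to equal medians, 20.2% of genes were lower and 20.2% higher. With both set to the pan-endothelial genes, a log2 shift of 0.45, 12.7% were lower and 40.1% higher. That shift is larger in size than the median log2 ratio of the pan-endothelial genes, -0.24. The 5 calls were the same under both scalings. All 5 had at least 0.3 RPKM in both libraries. For each, the whole counting interval lay past 1.5 fold, as it did for 16% of genes on the lower side and 8.3% on the higher side. In these bulk libraries, fewer cells expressing a gene and less RNA per cell cannot be told apart.

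**Figure D1:**
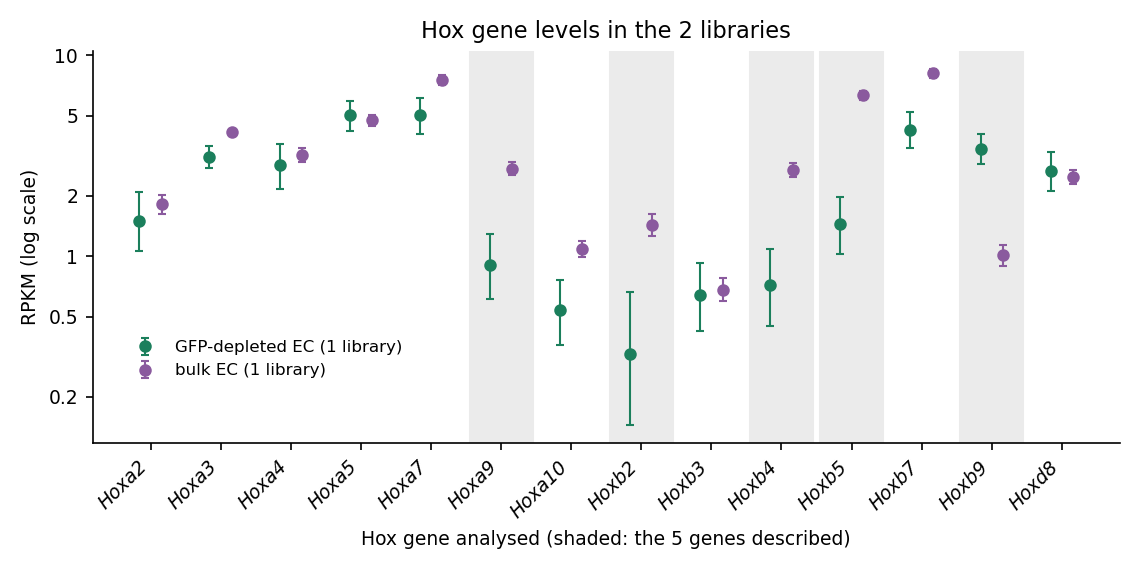
Level of each Hox gene analysed, in RPKM on a log scale, in GFP-depleted EC (left point of each pair, green) and bulk EC (right point, purple); bars are exact 95% counting intervals and shading marks the 5 genes described. Hoxb9 is the shaded gene with the higher level in GFP-depleted EC (3.43 against 1.01 RPKM), and the other 4 shaded genes have the higher level in bulk EC.

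Hoxb2 (ENSMUSG00000075588, chromosome 11, 96212946 to 96215330, plus strand) is the HoxB gene nearest the 3′ end of the cluster here and is best known for patterning the hindbrain. It had 0.32 RPKM in GFP-depleted EC (interval 0.14 to 0.66, about 8 reads), against 1.44 RPKM in bulk EC (1.27 to 1.62, about 257 reads). The level was 4.42-fold lower in GFP-depleted EC, with an interval of 2.14 to 10.02 that was the widest of the 5. The log2 ratio was -1.47, and 5.24% of all genes had a ratio at least as low. In the annotation, 58.7% of its exonic bases are also covered, in antisense, by exons of Hoxb3os, a non-coding gene. The sources used here do not say whether counting used strand, so reads of both genes cannot be told apart over those bases.

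Hoxb4 (ENSMUSG00000038692, chromosome 11, 96180053 to 96182944, plus strand) had 0.72 RPKM in GFP-depleted EC (0.45 to 1.09, about 22 reads), against 2.69 RPKM in bulk EC (2.48 to 2.91, about 616 reads). This was 3.73-fold lower in GFP-depleted EC (2.44 to 5.998), a log2 ratio of -1.55, and 4.68% of all genes were at least as low. No exon of another gene overlaps its exons. In the plot of levels its intervals in the 2 libraries lie far apart, although its level in bulk EC could not be told from that of Hoxa9.

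Hoxb5 (ENSMUSG00000038700, chromosome 11, 96164826 to 96167434, plus strand), which is known to activate the VEGF receptor gene Kdr, had the highest level of the 5 in bulk EC and the lowest log2 ratio. It had 1.44 RPKM in GFP-depleted EC (1.03 to 1.96, about 40 reads), against 6.32 RPKM in bulk EC (5.98 to 6.67, about 1315 reads). The level was 4.38-fold lower in GFP-depleted EC (3.20 to 6.16). The log2 ratio was -1.93, and 2.65% of all genes were at least as low. Antisense exons of 0610040B09Rik cover 5.28% of its exonic bases.

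Hoxb9 (ENSMUSG00000020875, chromosome 11, 96132644 to 96137903, plus strand), a patterning gene of the thoracic skeleton, lies at the 5′ side of the HoxB entries and was the exception in direction. It had 3.43 RPKM in GFP-depleted EC (2.87 to 4.08, about 129 reads), against 1.01 RPKM in bulk EC (0.90 to 1.14, about 285 reads). The ratio was 3.39 (2.74 to 4.20), a log2 ratio of 1.51, and 2.20% of all genes had a ratio at least as high. It therefore had the most reads of the 5 genes in the shallower library. Its exons overlap those of no other gene.

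Hoxa9 (ENSMUSG00000038227, chromosome 6, 52174053 to 52177369, minus strand) had 0.90 RPKM in GFP-depleted EC (0.61 to 1.29, about 30 reads), against 2.72 RPKM in bulk EC (2.53 to 2.94, about 680 reads). It was 3.03-fold lower in GFP-depleted EC (2.10 to 4.51), a log2 ratio of -1.33, and 6.48% of all genes were at least as low. This was the smallest difference among the 4 genes lower in GFP-depleted EC. No exon of another gene overlaps its exons.

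The order of the 5 genes differed between the libraries. In GFP-depleted EC the level went up in the order Hoxb2, Hoxb4, Hoxa9, Hoxb5 and Hoxb9, and the intervals of neighbours overlapped for all but the last step, from Hoxb5 to Hoxb9. In bulk EC the order was Hoxb9, Hoxb2, Hoxb4, Hoxa9 and Hoxb5, and the intervals of neighbours overlapped only between Hoxb4 and Hoxa9. Hoxb9 thus had the highest level of the 5 in GFP-depleted EC and the lowest in bulk EC. Together the 4 genes lower in GFP-depleted EC added up to 3.39 RPKM there and 13.2 RPKM in bulk EC.

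The 5 genes have 1631 (Hoxb2) to 2568 (Hoxb9) exonic bases, and their exonic GC of 52.8% (Hoxb9) to 55.6% (Hoxb2) is above the median of all genes, 49.9%. After the trend with GC was subtracted, the log2 ratio was -1.12 for Hoxb2, -1.27 for Hoxb4, -1.65 for Hoxb5, -1.01 for Hoxa9 and 1.65 for Hoxb9. Each ratio stayed past 1.5 fold in its direction. The correction brought the 4 lower genes nearer to 0 and took Hoxb9 further from it.

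**Figure D2:**
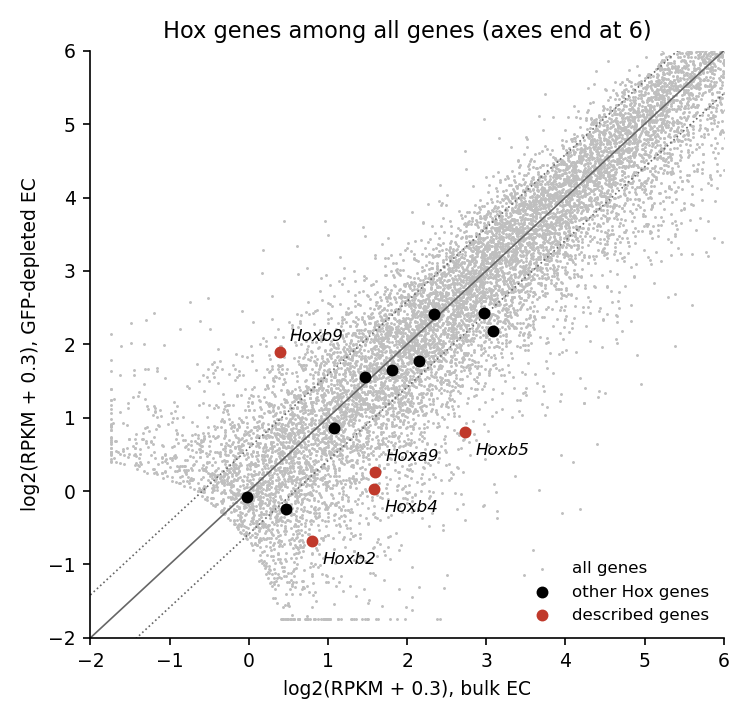
Each grey point is a gene, with log2(RPKM + 0.3) in GFP-depleted EC on the vertical axis and in bulk EC on the horizontal axis; the line marks equal values and the dotted lines a 1.5-fold ratio. Hoxb9 lies above the upper dotted line, the other 4 described genes (red) lie below the lower line, and most other Hox genes (black) lie between the lines.

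Set against genes of like level, the calls were more common than over all genes. Of the 3837 genes whose higher value lay in the range of the 5 genes, 28.6% were lower in GFP-depleted EC by more than 1.5 fold and 21.1% were higher. A ratio above 3 fold, which all 5 genes had, was found for 9.36% of these genes on the lower side and 5.16% on the higher side, and for 6.23% of all genes on the lower side and 3.25% on the higher side.

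Along the chromosome the ratios did not move in a single direction within either cluster. Values are given for 7 HoxA genes, 6 HoxB genes and 1 HoxD gene (Hoxd8), and the other Hox genes were not analysed here. In HoxB, which spans 82.7 kb from Hoxb9 to Hoxb2, the log2 ratio was -1.47 for Hoxb2, -0.06 for Hoxb3 6.09 kb away, -1.55 for Hoxb4, -1.93 for Hoxb5, -0.89 for Hoxb7 and 1.51 for Hoxb9, whose 3′ end is 13.6 kb from that of Hoxb7. Hoxb3, also a hindbrain gene, was at 0.64 RPKM in GFP-depleted EC and 0.68 RPKM in bulk EC, and 37.9% of its exonic bases are covered in antisense by Hoxb3os. Hoxb7 had 4.26 RPKM in GFP-depleted EC and 8.15 RPKM in bulk EC, 1.92-fold lower in GFP-depleted EC (1.55 to 2.38). On the log2 scale the lowest value (Hoxb5) and the only called higher value (Hoxb9) thus lay in the same cluster. Of the 50-base words of Hoxb7 transcripts, 27.2% also occurred in transcripts of other genes, Hoxb8 among them, a larger share than for any of the 5 genes. That share is over 3782 words of whole annotated transcripts, while 1522 exonic bases were used for its read number. Where the shared words lie was not examined.

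**Figure D3:**
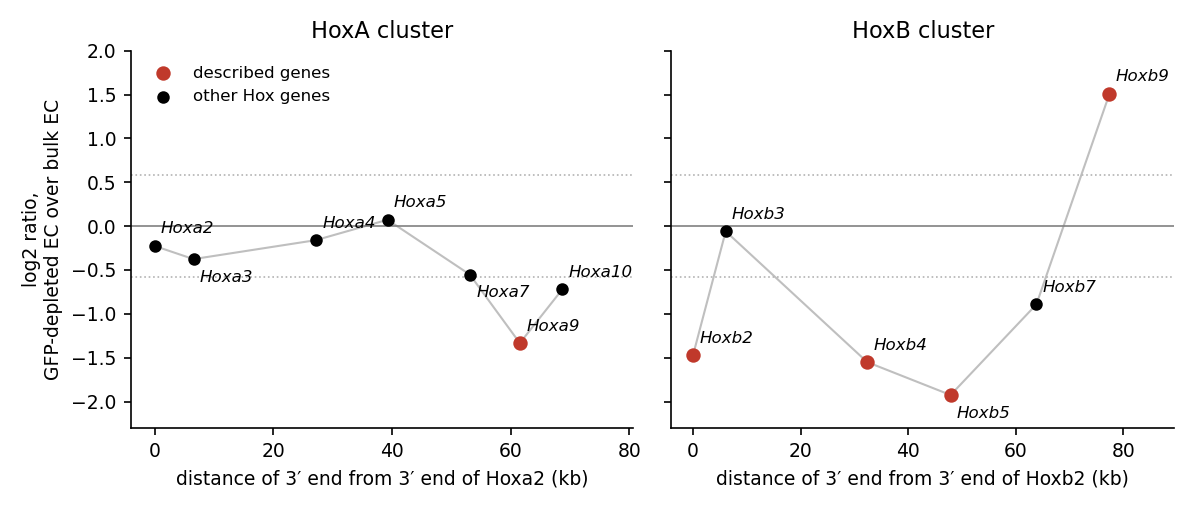
Log2 ratio (GFP-depleted EC over bulk EC, 0.3 RPKM added) of each HoxA gene (left panel) and HoxB gene (right panel) by the distance in kb of its 3′ end from that of Hoxa2 or Hoxb2; dotted lines mark 1.5 fold and red points the genes described. HoxA ratios stay between 0.07 and -1.33, and HoxB ratios run between -1.93 at Hoxb5 and 1.51 at Hoxb9.

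In HoxA the ratios of Hoxa2, Hoxa3, Hoxa4 and Hoxa5 lay between -0.38 (Hoxa3) and 0.07 (Hoxa5), and those of Hoxa7, Hoxa9 and Hoxa10, toward the 5′ end, were lower. With the GC trend subtracted this did not hold for Hoxa7, at -0.20 against -0.35 for Hoxa3, and Hoxa10, at -0.47, was within 1.5 fold. In the annotation, exons of other entries overlap 46.9% of the exonic bases of Hoxa3, and antisense exons overlap 14.3%. Hoxa7, 8.43 kb from Hoxa9, had 5.06 RPKM in GFP-depleted EC and 7.56 RPKM in bulk EC, a ratio of 1.49 fold that lay just short of the threshold. Hoxa10, on the other side of Hoxa9, had 0.54 RPKM in GFP-depleted EC and 1.09 RPKM in bulk EC, 2.01-fold lower with an interval of 1.41 to 3.05. Hoxa9, the described gene of this cluster, had the lowest ratio of the 7, and Hoxa10 was the next lowest. Of the 9 Hox genes outside the 5, 2 passed 1.5 fold, Hoxb7 and Hoxa10, both lower in GFP-depleted EC, a share near the 23.6% of all genes, and the median log2 ratio of the 9 was -0.23. Ordered by size of the fold, Hoxa9 at 3.03 is the smallest described difference and Hoxa10 at 2.01 the largest of those not described.

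The share that each gene took of its cluster also differed. HoxB entries added up to 10.8 RPKM in GFP-depleted EC and 20.3 RPKM in bulk EC, 1.88-fold lower in GFP-depleted EC. Hoxb9 made up 31.7% of that sum in GFP-depleted EC, against 4.98% in bulk EC. Hoxb5 made up 13.3% in GFP-depleted EC, against 31.2% in bulk EC. Hoxb7 made up 39.4% in GFP-depleted EC, where its interval (3.45 to 5.22 RPKM) overlapped that of Hoxb9, against 40.2% in bulk EC. Without Hoxb9 the HoxB sum was 7.38 RPKM in GFP-depleted EC and 19.3 RPKM in bulk EC, 2.61-fold lower. The 7 HoxA genes added up to 19.0 RPKM in GFP-depleted EC and 25.3 RPKM in bulk EC, and Hoxa9 made up 4.74% of the sum in GFP-depleted EC, against 10.8% in bulk EC.

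Added up by paralog group, the described genes pulled their groups in different ways. In group 9 the opposite differences of Hoxa9 and Hoxb9 left the sum at 4.33 RPKM in GFP-depleted EC and 3.74 RPKM in bulk EC, a ratio of 1.16, while the larger part was Hoxb9 in GFP-depleted EC and Hoxa9 in bulk EC. In groups 2, 4 and 5 the HoxA paralog stayed within 1.5 fold while the HoxB gene was lower in GFP-depleted EC. Hoxa2 had 1.51 RPKM in GFP-depleted EC (about 37 reads) and 1.81 RPKM in bulk EC. It was 1.20-fold lower in GFP-depleted EC, with an interval of 0.86 to 1.74 that reaches past 1.5 fold. Exons of Hoxa3 overlap 15.9% of its exonic bases. Hoxa4 had 2.83 RPKM in GFP-depleted EC and 3.20 RPKM in bulk EC, and Hoxa5 had 5.02 RPKM in GFP-depleted EC and 4.76 RPKM in bulk EC. The sums were 1.77-fold lower in GFP-depleted EC for group 2, 1.66-fold lower for group 4 and 1.71-fold lower for group 5. Group 7, with no described gene, was 1.69-fold lower as well, with both Hoxa7 and Hoxb7 contributing.

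**Figure D4:**
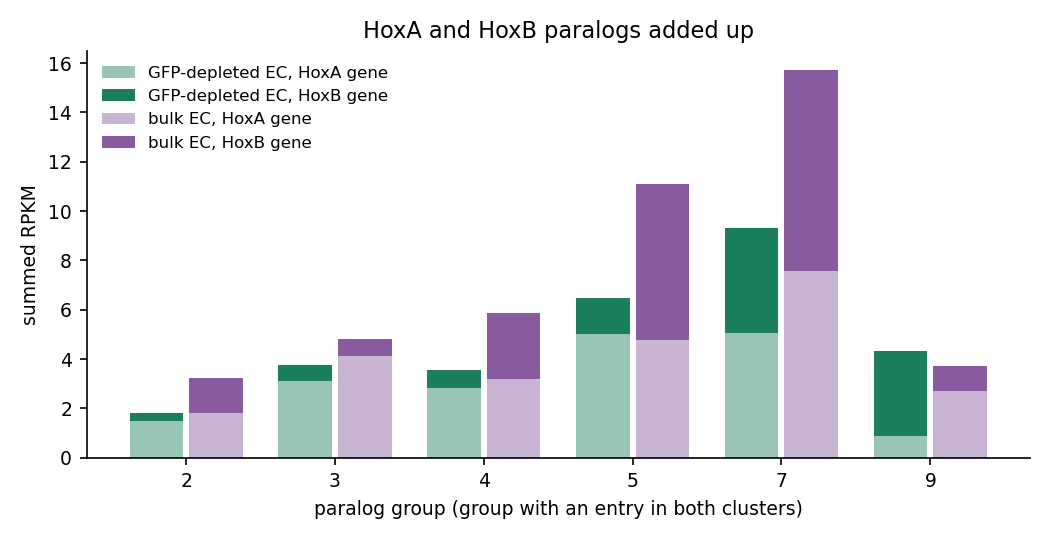
Summed RPKM of the HoxA gene (light) and the HoxB gene (dark) of each paralog group with an entry in both clusters, in GFP-depleted EC (left bar of each pair, green) and bulk EC (right bar, purple). In group 9 the bars are of like height (4.33 and 3.74 RPKM) but most of the left bar is Hoxb9 and most of the right bar is Hoxa9.

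Genes next to the clusters were read in the same way. Within 500 kb of HoxA, 0 of 6 entries were lower and 1 was higher in GFP-depleted EC, the adaptor gene Skap2 with 71.7 RPKM in GFP-depleted EC and 47.4 RPKM in bulk EC, and their median log2 ratio was -0.08. Within 500 kb of HoxB, 10 of 15 entries were lower and 0 were higher, with a median of -0.97, where 23.6% of all genes were lower. The lowest ratio was that of the pseudogene entries AL596384.17-1 and RP23-353J21.2, 2 of the 15, which have the same coordinates and the same values, 0.35 RPKM in GFP-depleted EC and 2.18 RPKM in bulk EC. The nearest entry on the Hoxb9 side, the pseudogene RP23-85A17.3, lies 22.1 kb away and had 1.92 RPKM in GFP-depleted EC and 1.80 RPKM in bulk EC. The nearest on the Hoxb2 side, the sorting nexin gene Snx11, lies 414 kb away and had 1.78 RPKM in GFP-depleted EC and 5.43 RPKM in bulk EC, a log2 ratio of -1.46. The median depended on the window: it was -0.013 over the 2 entries within 200 kb and -0.39 over the 35 within 1000 kb.

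Genes of pathways that act with or upstream of Hox genes were compared by list, to be read against the 23.6% of all genes that were lower and the 15.3% that were higher in GFP-depleted EC. Among TALE homeodomain factors, which bind DNA together with Hox proteins, 4 of 8 were lower in GFP-depleted EC and 1 was higher, and the median log2 ratio was -0.45, or -0.20 with the GC trend subtracted. Meis1, the partner of Hoxa9, had 8.33 RPKM in GFP-depleted EC and 19.2 RPKM in bulk EC (log2 ratio -1.17), and Pknox1, a relative of the Meis genes, had 2.63 RPKM in GFP-depleted EC and 4.75 RPKM in bulk EC (-0.78). Pbx3 was the TALE gene with a higher level, 9.62 RPKM in GFP-depleted EC and 5.51 RPKM in bulk EC (0.77).

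Among trithorax and MLL complex genes, which maintain active Hox genes, 3 of 10 were lower and 0 were higher, with a median of 0.02, and the lower share is near the 23.6% of all genes. The largest difference was in Men1, which encodes the MLL partner menin, with 11.3 RPKM in GFP-depleted EC and 28.7 RPKM in bulk EC, followed by Ash2l with 17.4 RPKM in GFP-depleted EC and 29.6 RPKM in bulk EC. Among Polycomb genes, which keep Hox genes silent, 6 of 24 were lower and 4 were higher, with a median of -0.23, both shares near those of all genes (23.6% and 15.3%). Cbx8 had 0.15 RPKM in GFP-depleted EC and 1.95 RPKM in bulk EC, 13.2-fold lower with an interval of 4.79 to 68.9 that shows how few reads it had. Pcgf1 and Pcgf6, subunits of Polycomb repressive complex 1, were higher in GFP-depleted EC, with 9.54 RPKM against 4.73 RPKM in bulk EC for Pcgf1 and 2.12 RPKM against 1.19 RPKM in bulk EC for Pcgf6.

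Retinoic acid switches on 3′ Hox genes in the embryo, and Cdx factors act on more 5′ genes. Of 13 genes of both kinds with an entry, none of them a Cdx gene, 4 were lower in GFP-depleted EC (23.6% of all genes were) and 0 were higher, and the median log2 ratio was -0.42 and became 0.072 after the GC trend was subtracted. Cyp26a1, which breaks down retinoic acid, had 0.83 RPKM in GFP-depleted EC and 2.41 RPKM in bulk EC (ratio on the log2 scale -1.26, or -1.06 with GC subtracted). The receptor gene Rara had 0.83 RPKM in GFP-depleted EC and 2.18 RPKM in bulk EC (-1.13, and -0.33 after GC subtraction, no longer past 1.5 fold).

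Among markers with an entry, those of blood, mesenchyme, somite and epithelium were mostly lower in GFP-depleted EC, and those of neural cells mostly were not. Over all genes 23.6% were lower and 15.3% higher. Hox genes mark trunk tissues of all germ layers, and Hoxb4, Hoxb5 and Hoxa9 are also active in blood cells. The CD31+CD117-CD45- gate, given only for GFP-depleted EC, selects against CD45+ blood cells and against CD31- cells of mesenchyme, somite and epithelium. The gate used for bulk EC is not stated, so a difference of gate cannot be told apart from the other differences between the libraries. Markers of all these tissues still had reads in both libraries, and whether such cells were present was not tested. Of 16 erythroid, megakaryocyte and myeloid genes, 15 were lower and 0 were higher in GFP-depleted EC, with a sum of 603 RPKM there and 2201 RPKM in bulk EC. Much of the difference between these sums is Pf4 alone, with 70.3 RPKM in GFP-depleted EC and 1112 RPKM in bulk EC. Treml1 had 0.27 RPKM in GFP-depleted EC and 11.8 RPKM in bulk EC, and Lyz2 was listed at 0 in GFP-depleted EC. Of 8 mesenchyme and mural genes, 6 were lower and 1, Lum, was higher (sum 16.5 RPKM in GFP-depleted EC and 33.4 RPKM in bulk EC). Of 5 somite and muscle genes, 5 were lower (sum 6.39 RPKM in GFP-depleted EC and 26.2 RPKM in bulk EC), with Myf6 listed at 0 in GFP-depleted EC. Of 3 nephric, gonadal and epithelial genes, 3 were lower (sum 7.65 RPKM in GFP-depleted EC and 37.2 RPKM in bulk EC). Of 4 neural genes 1 was lower (sum 75.2 RPKM in GFP-depleted EC and 101.5 RPKM in bulk EC). The lists held 20 blood, 14 mesenchyme, 13 somite, 14 nephric and 13 neural genes, and those not counted had no entry. No entry had a mean of the 2 libraries below 0.50 RPKM. A marker near 0 in GFP-depleted EC, such as Myf6, thus had an entry only through bulk EC, and the reverse holds as well. Counts of such low markers are shaped by that limit and are no result to set beside the Hox genes. None of the 14 housekeeping genes differed by more than 1.5 fold. Hoxb9, with its higher level in GFP-depleted EC, differed in direction from most of these markers. The part of such cells in the levels of the Hox genes was not tested.

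The genes with the most similar pair of values were listed for each of the 5, by Euclidean distance in log2(RPKM + 0.3) over the 2 libraries among 11657 protein-coding genes. They were Dnajb2 (0.90 RPKM in GFP-depleted EC and 2.67 RPKM in bulk EC) and Zfp697 for Hoxa9, Ier5l and Polm for Hoxb4, and Fam100b and Apba3 for Hoxb5. For Hoxb2 they were AC140782.4-1 and 1700066M21Rik, and for Hoxb9 Clcn6 (3.42 RPKM in GFP-depleted EC and 1.03 RPKM in bulk EC) and Mfsd7c. Between 15 genes, for Hoxb9, and 42 genes, for Hoxb2, lay within a distance of 0.25, so many genes share each pair of values and the listed names are only the nearest.

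**Figure D5:**
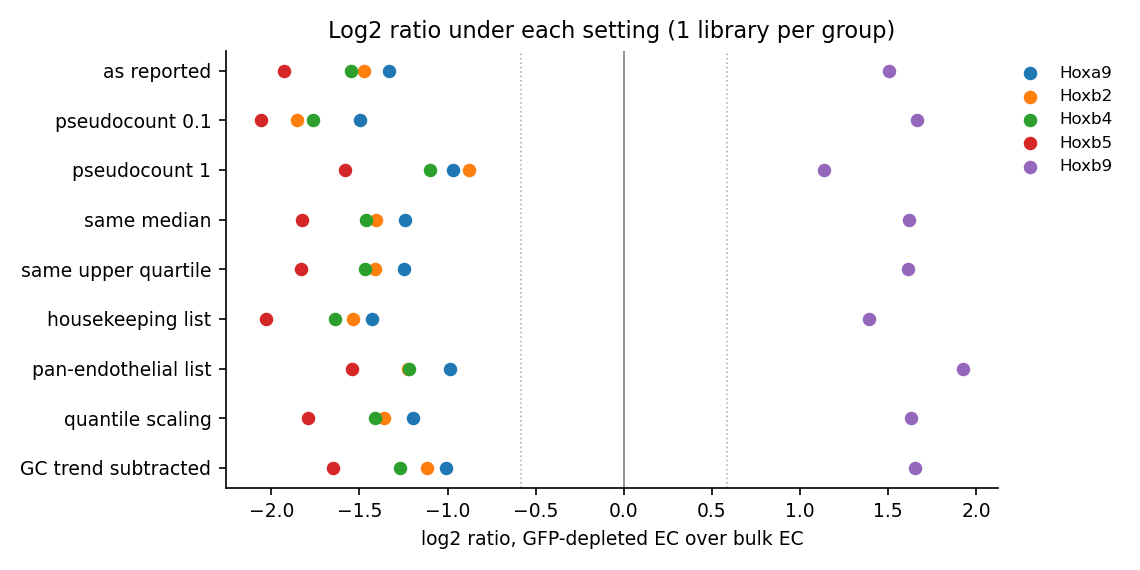
Log2 ratio (GFP-depleted EC over bulk EC) of the 5 genes as reported and under 8 other settings, named on the vertical axis; dotted lines mark 1.5 fold. Hoxb9 stays to the right of the upper line (1.14 to 1.93) and the other 4 genes stay to the left of the lower line, in every setting shown.

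The direction of each of the 5 ratios was the same under all 8 other settings of pseudocount, scaling and GC content. The log2 ratio ran from -1.50 to -0.97 for Hoxa9, from -1.85 to -0.88 for Hoxb2, from -1.76 to -1.10 for Hoxb4, from -2.06 to -1.54 for Hoxb5 and from 1.14 to 1.93 for Hoxb9. Among the other Hox genes the call depended on the scaling: Hoxb7 and Hoxa10 were within 1.5 fold when both libraries were scaled to the pan-endothelial list, and Hoxa7 joined them past 1.5 fold when scaled to the housekeeping list.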

How the data were processed

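RNA was extracted from sorted E10.5 AGM endothelial cells, 1 library per group, amplified with a SMART cDNA kit and sequenced in 1 lane. Per the labels, the authors used BWA (version 0.5.7) and Cuffdiff on the mouse genome mm9. The annotation, and whether counting used strand, is not given in the sources used here. In the deposited table the values are RPKM per gene and library, computed by the authors. A column with the authors' own fold change was not used. The lowest mean of the 2 values was 0.50.

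Of 12899 entries, 215 repeated symbols were dropped, keeping the entry with the higher mean, and 12684 genes remained. Groups followed the sample labels. The members and lists were chosen with earlier results of these data known. Depth was recovered from genes shorter than 150 bases. Of their values, 98.4% of 369 in GFP-depleted EC and 98.1% of 360 in bulk EC were within 0.15 of a whole number of covered bases (30% by chance). Covered bases were divided by a read length taken as 100 bases. Among short entries, 14.8% of 891 in GFP-depleted EC and 6.38% of 392 in bulk EC were whole multiples of 100 bases. These shares were 14.8 and 6.38 times those by chance. Read numbers and intervals depend on that read length. Genes were matched by identifier to GENCODE M1 (12301 matched), and exon length and GC were taken within the bounds the table gives, for 12106 genes (95.4%). Intervals of a level are exact Poisson intervals and those of a ratio exact conditional binomial intervals, both 95%. The GC trend was a lowess curve (span 0.3) over genes of at least 1 RPKM. No p-value was computed. Scripts, tested on simulated data, used Python 3.11.15, pandas 2.3.3, SciPy 1.17.1 and statsmodels 0.14.6.

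The genes named are the 5, the other Hox genes analysed, genes past the threshold with the 2 largest log2 ratios in each direction of a list (not all of them shown) with Meis1 and Runx1, the nearest and the most different genes flanking each cluster, and the 2 nearest genes in level; Lyz2 and Myf6 were added because they were listed at 0. Alternatives were pseudocounts of 0.1 and 1, 5 scalings, GC subtraction, another threshold or filter, and windows of 200 and 1000 kb. Some genes and sequences are not reported here and were left out of the Hox genes and lists.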

Additional observations from a re-analysis of the deposited data

How the results depend on the processing

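The 5 genes kept their direction and their side of the 1.5-fold threshold under every alternative, with 4 lower and 1 higher in GFP-depleted EC. The log2 ratio of Hoxb9 was 1.14 with a pseudocount of 1 and 1.93 when scaled to the pan-endothelial list. The median of genes flanking HoxB was -0.013 within 200 kb and -0.39 within 1000 kb. With the GC trend subtracted, the median of the Cdx and retinoic acid list became 0.072. The log2 ratio of Hoxa10 was then -0.47, within 1.5 fold, and that of Hoxd8 was 0.82, past 1.5 fold on the higher side. Over all genes, 2997 were lower and 1939 higher in GFP-depleted EC. These counts were 1683 and 839 at 2 fold, 1942 and 1005 where the whole interval had to pass 1.5 fold, 2566 and 2560 with equal medians, and 1606 and 5083 with pan-endothelial scaling. Scaling to the housekeeping list shifted the median of all genes by -0.12, to equal medians by 0.12, to equal upper quartiles by 0.11 and to the pan-endothelial list by 0.43. The scalings of the counts to the housekeeping and pan-endothelial lists were chosen after seeing the data. The causes were not tested.

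No paired analysis was possible because only 1 library exists for each condition, and for that reason no replicate was left out. Hoxb2 rests on about 8 reads in GFP-depleted EC, so its fold is known only to between 2.14 and 10.02, counting error alone. The depth of GFP-depleted EC limits the other low genes in the same way.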
